A study of Saccharomyces cerevisiae with 18 samples.

Results

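The RNA-seq comparison of yeast expressing *spn1* 141-305 with yeast expressing wild-type Spn1 is described here across genes and processes. It rests on 6 libraries, 3 of each genotype, of the 9 RNA-seq libraries and 18 samples of the series. The libraries were chosen by their labels and no measured value was used to choose them. Both strains were haploid Saccharomyces cerevisiae of the BY4741 background in which the chromosomal *SPN1* gene had been replaced by *LEU2*, and both carried an *SPN1* allele with an N-terminal myc tag on a centromeric *HIS3* plasmid under the native promoter and terminator. The wild-type strain carried the full gene, and the *spn1* 141-305 strain an allele that codes only for residues 141 to 305. The 3 *spn1* K192N libraries, from a strain with a point mutation in the same gene, entered the fits and are cited mostly where a difference between the mutants was tested. Triplicate cultures of each strain were grown to mid-exponential phase in rich medium, and cells of the fission yeast S. pombe were added before RNA extraction as a spike-in.

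Spn1 (Iws1 in humans) is a conserved elongation factor that travels with RNA polymerase II, binds the histone chaperone Spt6 through its folded core and binds histones and DNA through its flanking tails. The 141-305 fragment keeps the core and lacks both tails, so that the strain separates the polymerase-bound core from the tails that contact chromatin. Genes induced by starvation for phosphate, by salt or by a change in sugar supply are textbook examples of yeast genes whose transcription is regulated at the level of chromatin and promoter factors, and purine synthesis is a standard example of control by the activators Bas1 and Gcn4.

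Values are given on the rlog scale, a regularized log2 scale on which the authors deposited their expression matrix, with library scaling set by the S. pombe genes. The matrix holds no counts, so the depth of the libraries is unknown, and rlog shrinks differences, more so for weakly expressed genes. Changes below are therefore log2 differences of rlog values and understate the change of low genes. In RNA from whole cultures, fewer cells of a kind and less RNA per cell cannot be told apart. No marker went against the described strains: *LEU2*, *HIS3* and *LYS2* had values above the level set for testing, *URA3* and *MET17* were listed at 0 in all libraries, and the a-cell receptor gene *STE2* stood at 14.66, 14.61 and 14.59 in wild-type, whereas the alpha-factor gene MF(ALPHA)1 fell below the level set for testing. A listed 0 does not show that a gene was silent, since the a-factor gene *MFA1*, which a-cells express, was also among the 216 genes listed at 0 in all 9 libraries. For the wild-type replicates the labels name a parental genotype with no plasmid and a cell line that changes from replicate to replicate, and the strain description of the study was used instead.

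The plasmid-borne *SPN1* gene itself (YPR133C, chrXVI:795978-797210 in R64) stood at 12.27, 12.95 and 11.66 in the wild-type libraries and at 11.06, 11.07 and 11.79 in *spn1* 141-305. Its change was −0.99 (standard error 0.24, limma adjusted p = 0.00638), and the libraries of the genotypes overlapped. The call was lost without wild-type replicate 1 or 2 (limma adjusted p between 0.0595 and 0.0785). The plasmid marker *HIS3* varied in parallel, at 13.54, 14.32 and 12.97 in wild-type and 12.98, 13.02 and 13.73 in *spn1* 141-305. The rlog value of *SPN1* minus that of *HIS3* within a library, not scaled for gene length, lay between −1.37 and −1.26 in wild-type and between −1.95 and −1.92 in *spn1* 141-305, without overlap. The truncated allele is shorter than the reference gene to which reads were assigned, and its part in this value was not tested.

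Most genes were lower in *spn1* 141-305. As deposited, 1120 of the 5954 genes tested (18.8%) were lower and 27 (0.453%) were higher at a limma adjusted p below 0.05, and 86.3% of the tested genes had a change below 0, with a median of −0.09. Of the 1120 lower genes 1104 had no overlap between the 6 libraries, against a background of 45.0% of all tested genes with all 3 mutant libraries below all wild-type libraries and 1.6% with all 3 above. The shift was shared by genes. The median gene deviated from its mean over the 9 libraries by 0.113, 0.051 and 0.018 in wild-type and by −0.052, −0.043 and −0.027 in *spn1* 141-305. The libraries did not overlap, and the difference of −0.10 had an exact permutation p = 0.1 (two-sided), the smallest that 3 against 3 libraries allow. The same holds for every value below that is scaled by the spike-in, so each process is given a second time after the median deviation had been subtracted from each library, which is called centred here. After centring, 494 genes (8.3%) were lower and 189 (3.17%) higher. The called genes were 97.6% lower ones as deposited and 72.3% after centring. All 494 were among the 1120, and all 27 higher genes were among the 189. When the libraries were centred on the genes above the median level instead, 293 genes (4.92%) were lower and 352 (5.91%) higher, so that 45.4% of the calls were falls, and the balance of falls and rises depends on the reference chosen.

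These counts leaned on single libraries. Without wild-type replicate 1 the lower genes numbered 278 as deposited and 214 after centring, without wild-type replicate 2 they numbered 549 and 245, and without replicates 1, 2 and 3 of *spn1* 141-305 they numbered 470, 639 and 561 as deposited and 258, 378 and 278 after centring. Without *spn1* K192N replicate 1, which serves only to estimate the spread, they numbered 2038 and 702. The higher genes numbered between 9 and 23 as deposited and between 66 and 146 after centring with 1 library of the comparison left out. A core of 264 lower and 8 higher genes as deposited, and of 172 lower and 44 higher genes after centring, was called in all 6 fits that left out 1 library of the comparison, and calls in that core are described as kept. For most gene groups the count kept is given beside at least 1 of the counts called. A count given without a named library comes from that 1 fit alone and is not a count kept. In 45 of the 45 lists of genes with a member called lower as deposited, that count was lowest, alone or tied, without wild-type replicate 1.

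Falls were larger in long genes and in highly expressed genes. Across deciles of annotated gene length the median change ran from −0.01 in the shortest genes (median 366 bases) to −0.23 in the longest (median 3537 bases), and every wild-type library rose and every *spn1* 141-305 library declined with length. The slope per doubling of length was 0.040, 0.027 and 0.029 in wild-type and −0.025, −0.0096 and −0.057 in *spn1* 141-305 (difference −0.062, exact permutation p = 0.1, the smallest possible). Level rose with length, from a median rlog of 7.22 in the shortest decile to 10.27 in the longest, and rlog shrinks the changes of low genes. The slope per unit of mean rlog was 0.021, 0.012 and 0.0031 in wild-type and −0.013, −0.0086 and −0.0036 in *spn1* 141-305 (difference −0.020, exact permutation p = 0.1), and with level as a further term the difference in length slope was −0.053. Across 5565 genes, which share the libraries, the change had a Spearman rho of −0.58 with length and −0.44 with level. With genes split into 4 classes of length and 4 of level, the median change from the shortest to the longest class went from −0.02 to −0.08 at the lowest level and from −0.07 to −0.24 at the highest. The gene groups differ in length, and therefore a further centring within each decile of length, chosen after the values had been seen, is given as a check. It left 198 genes (3.33%) lower, 188 of them among the 494, and 104 (1.75%) higher, 79 of them among the 189.

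**Figure D1:**
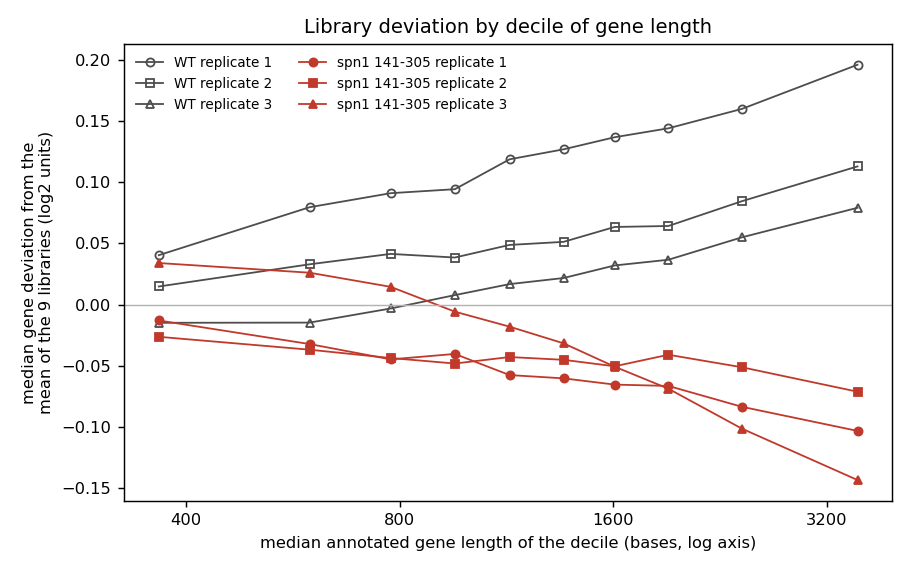
Median deviation of genes from their mean over the 9 libraries (y axis, log2 units) by decile of annotated gene length (x axis, bases, log axis), 1 line per library. Wild-type libraries (grey) rise and spn1 141-305 libraries (red) decline with length, and in the longest decile they lie between 0.079 and 0.196 and between −0.143 and −0.071.

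The genes with the largest falls belonged to no single group. Among them were the carrier genes *PHO89*, *ENA2* and *HXT2*, the protease genes *YPS1* and *YPS3* and the lipid synthesis gene *ACC1*, and the others had varied roles. The 15 largest falls among genes without overlap ranged from −1.83 to −0.68, and all 15 were called as deposited, after centring and within deciles of length, and kept. *PHO89*, *ENA2*, *HXT2*, *ACC1*, *CLN3* and *ENO1* are described with their groups. *BSC1*, a flocculation-related gene of uncertain role, stood at 12.36, 12.37 and 12.21 in wild-type and 11.30, 11.52 and 11.35 in *spn1* 141-305, and its neighbour *PRM7* at 14.20, 14.14 and 14.06 in wild-type and 13.31, 13.34 and 13.46 in the mutant. Their changes of −0.92 and −0.76 were larger than the range within either genotype, and both were kept. *YPS1* and *YPS3* are adjacent genes for yapsins, aspartyl proteases anchored at the cell surface. *YPS1* stood at 12.90, 12.75 and 12.63 in wild-type and 11.89, 12.03 and 12.01 in the mutant, a change of −0.78 (standard error 0.11, limma adjusted p = 3.02e-05), and *YPS3* changed by −0.68. *CMK2*, a calmodulin-dependent kinase, changed by −0.70, *FLC1*, a putative flavin transporter of the endoplasmic reticulum, by −0.73, and *LAF1* by −0.74. The subtelomeric genes *YRF1-1*, a helicase gene of the Y' element, and *COS10* changed by −0.69 and −0.68. Reads of these families can be shared among copies, since *YRF1-1* and *YRF1-6* were identical at 96.0% of the longer coding sequence.

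**Figure D2:**
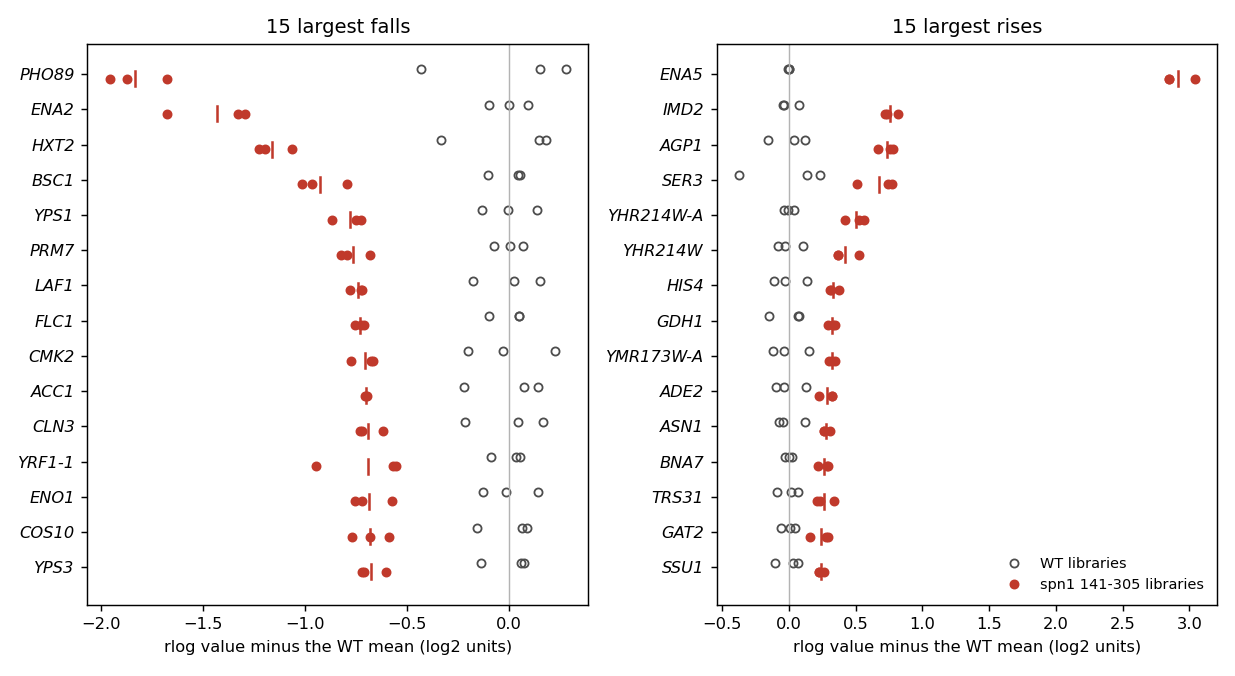
rlog value of each library minus the wild-type mean (x axis, log2 units) for the 15 largest falls (left) and 15 largest rises (right) of spn1 141-305 against wild-type among called genes without overlap. Open grey circles are wild-type libraries, filled red circles spn1 141-305 libraries and red bars their mean, which runs from −1.83 for PHO89 to 2.91 for ENA5.

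**Figure D3:**
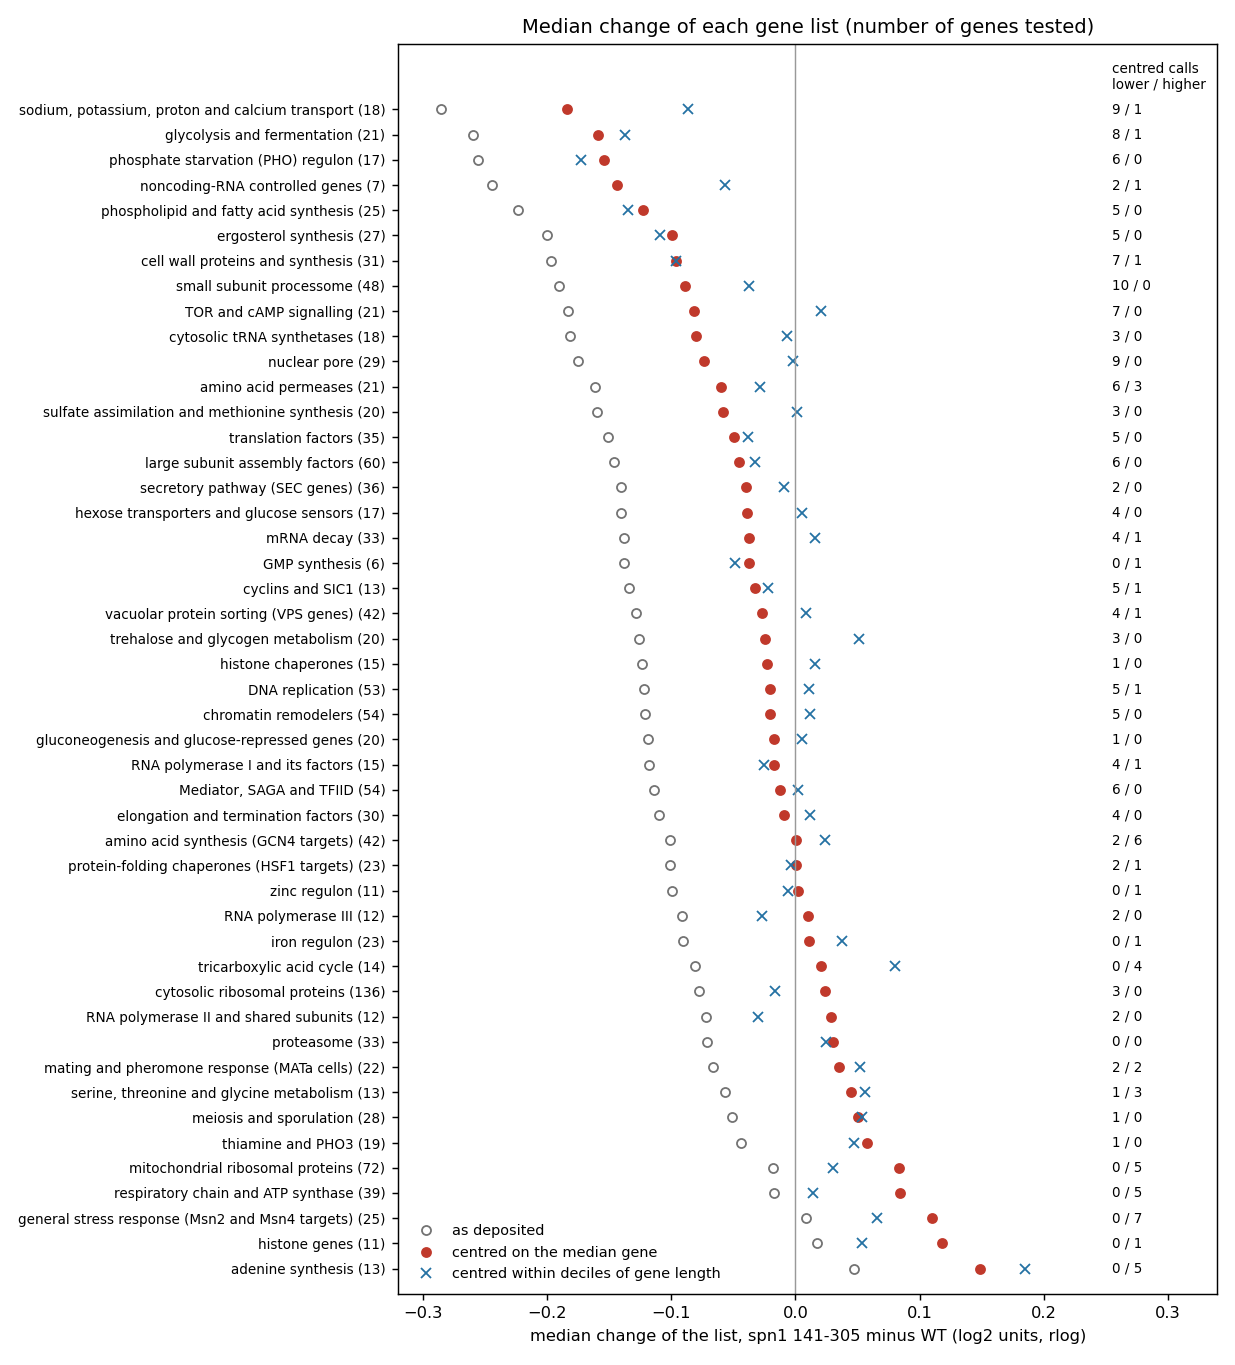
Median change of 47 of the 48 gene lists (y axis, number of tested genes in brackets) in spn1 141-305 minus wild-type (x axis, log2 units) as deposited (open grey), centred on the median gene (red) and centred within deciles of gene length (blue crosses). The numbers at the right are the members called lower and higher after centring. Over all 48 lists, 45 medians lie below 0 as deposited and 30 after centring.

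Processes are described from 48 lists that hold 1369 genes, of which 1353 were tested. The share of a list called is given in brackets and is read against that of all tested genes, 18.8% lower and 0.453% higher as deposited and 8.3% lower and 3.17% higher after centring. In the plot of list medians, cation transport, glycolysis, the phosphate regulon, genes controlled by noncoding RNAs and phospholipid and fatty acid synthesis lie lowest after centring, and adenine synthesis, histone genes and the general stress response lie highest. Across lists, the centred median fell with the median gene length of the list (Spearman rho −0.46 over 48 lists). Centring within length deciles removes the length trend of all genes. The rho of 0.015 after it therefore follows largely from that step and is no test. Both values are descriptions, since lists share libraries and 9 genes.

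Genes of the phosphate starvation regulon fell, 6 of them under all 3 scalings. Pho4 activates these genes when phosphate is scarce, among them high-affinity transporters, secreted acid phosphatases and the vacuolar polyphosphate polymerase. Of 17 members tested, 11 (64.7%) fell as deposited and 5 of these were kept (6 fell without wild-type replicate 1 or without *spn1* 141-305 replicate 1). After centring 6 (35.3%) fell, 4 of them kept, and within deciles of length 6 fell. No member rose. The median change was −0.26 as deposited and −0.15 after centring, against −0.09 and 0.01 over all tested genes. The CACGTG core to which Pho4 binds, searched on both strands, occurred within 600 bases upstream of the start codon in 16 of the 17 members (94.1%), against 428 of 5895 protein-coding genes (7.26%). The sequences around it are shown for the transporters and phosphatases on which the result turns, 5′ to 3′ on the coding strand from RefSeq R64, with the core in capitals.
PHO89: atgacaatgcagCACGTGggagacaaatag
PHO84: tgttatttccagCACGTGgggcggaaatta
PHO5: ccttggcactcaCACGTGggactagcacag
PHO11: tcttggcgttcaCACGTGggtttaaaaagg
PHO12: tcttggcgttcaCACGTGggtttaaaaagg
The windows lie at chrII:798828-798857 (PHO89, minus strand), chrXIII:26197-26226 (PHO84, minus strand, 1 of 2 matches), chrII:431187-431216 (PHO5, minus strand), chrI:225165-225194 (PHO11, plus strand) and chrVIII:551804-551833 (PHO12, plus strand). The windows of *PHO11* and *PHO12* are identical. A match is a description of the letters and says nothing of occupancy. The members were listed as a regulon of Pho4, so a high share of matches follows from the listing and is no test of the falls. *PHO8* and *PHO12*, which were not called, also held a match.

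*PHO89*, the sodium-coupled phosphate transporter (YBR296C), had the largest fall of any gene without overlap. It stood at 11.71, 11.58 and 10.998 in wild-type and 9.47, 9.56 and 9.75 in *spn1* 141-305, so that the highest mutant library lay more than 1 log2 unit below the lowest wild-type library. The change was −1.83 (standard error 0.13, limma adjusted p = 1.54e-10) as deposited and −1.73 after centring. *PHO84*, the proton-coupled high-affinity transporter, stood at 15.67, 15.68 and 15.54 in wild-type and 15.002, 15.04 and 15.12 in the mutant, a change of −0.58 (limma adjusted p = 0.00196). The secreted acid phosphatases divided. *PHO5*, the repressible enzyme and a classic model of promoter chromatin, stood at 13.10, 13.46 and 12.94 in wild-type and 12.40, 12.35 and 12.73 in the mutant (change −0.67, limma adjusted p = 0.00151). *PHO11* stood at 10.38, 10.42 and 10.23 in wild-type and 9.75, 9.73 and 9.82 in the mutant (change −0.57, limma adjusted p = 5.50e-06), and its near-identical copy *PHO12* at 11.66, 11.85 and 11.54 in wild-type and 11.57, 11.54 and 11.52 in the mutant, with overlap (change −0.15, limma adjusted p = 0.259). The coding sequences of *PHO11* and *PHO12* were identical at 99.7% of positions, so their division is uncertain, and their summed level was 12.17 ± 0.14 (SD, n = 3) in wild-type and 11.91 ± 0.017 in *spn1* 141-305. *PHO81*, the inhibitor of the Pho85 kinase that holds Pho4 inactive, fell by 0.47 and kept its call after centring. *VTC3*, a subunit of the vacuolar transporter chaperone that makes polyphosphate, changed by −0.42 with no overlap (limma adjusted p = 0.00383), a call lost without wild-type replicate 1 (limma adjusted p = 0.0586). *VTC2*, of the same complex, was called as deposited only (change −0.26, limma adjusted p = 0.0261), a call lost without wild-type replicate 1 or 2 or *spn1* 141-305 replicate 1, 2 or 3 (limma adjusted p between 0.0505 and 0.143). *PHO8*, the vacuolar alkaline phosphatase, stood at 11.93, 11.79 and 11.87 in wild-type and 11.76, 11.77 and 11.72 in the mutant and was not called, although its libraries did not overlap.

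The phosphate genes were lower still in *spn1* K192N. After centring, *PHO89* changed by −2.51 in *spn1* K192N and −1.73 in *spn1* 141-305, *PHO84* by −1.15 and −0.47, and *PHO5* by −1.17 and −0.57. Both sets share the wild-type libraries, and the direct contrast of the mutants, given after centring here and below, is the test: 12 of the 17 members were higher in *spn1* 141-305 than in *spn1* K192N and 0 were lower, against 111 (1.86%) and 142 (2.38%) of all tested genes. Without replicates 1, 2 and 3 of *spn1* 141-305 the genes higher in that contrast numbered 55, 59 and 63 and the genes lower numbered 73, 87 and 80. The differences were 0.78 for *PHO89* (limma adjusted p = 0.0016), 0.67 for *PHO84* (limma adjusted p = 4.19e-04) and 0.81 for *PHO12* (limma adjusted p = 7.60e-06).

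**Figure D4:**
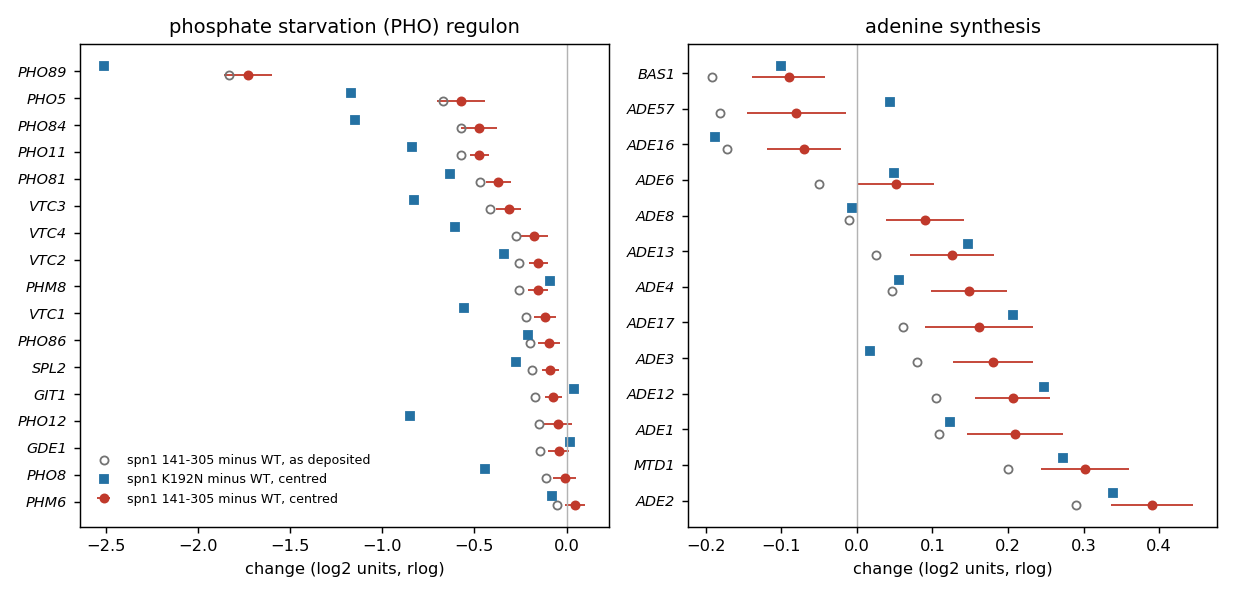
Change against wild-type (x axis, log2 units) of each tested member of the phosphate regulon (left, 17 genes) and of adenine synthesis (right, 13 genes). Red circles show spn1 141-305 after centring with the standard error of the fit, open grey circles the same change as deposited, and blue squares spn1 K192N after centring; PHO89 lies at −1.73 and −2.51 after centring in the mutants, and ADE2 at 0.39 and 0.34.

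Genes for transporters of sodium, potassium, calcium and protons fell as well. Of 18 tested members 13 (72.2%) fell as deposited (5 kept, 5 without wild-type replicate 1), 9 (50.0%) after centring (5 kept) and 4 within deciles of length, and 1 (5.56%) rose. The median change was −0.29 as deposited and −0.18 after centring. These are long genes, with a median length of 2800 bases, and within length deciles the median was −0.09. The list holds both the second largest fall and the largest rise of all genes, and these come from tandem copies of the P-type sodium pump. *ENA2* (YDR039C) stood at 12.54, 12.45 and 12.35 in wild-type and 11.12, 11.15 and 10.77 in *spn1* 141-305 (change −1.43, standard error 0.09, limma adjusted p = 1.96e-11). *ENA5* (YDR038C) stood at 8.16, 8.15 and 8.16 in wild-type and 11.003, 11.19 and 11 in the mutant (change 2.91, standard error 0.08, limma adjusted p = 1.31e-21). Neither gene overlapped between genotypes, and in *spn1* K192N, too, *ENA2* was lower and *ENA5* higher than in wild-type (changes −0.93 and 3.09 as deposited). The direct contrast of the mutants is not given for *ENA2* and *ENA5*. The coding sequences of *ENA2* and *ENA5* were identical at 99.0% of positions and those of *ENA1* and *ENA2* at 98.7%, so the division of reads among them is uncertain. Summed on the linear scale, *ENA1*, *ENA2* and *ENA5* together stood at 13.66 ± 0.11 (SD, n = 3) in wild-type and 13.21 ± 0.047 in *spn1* 141-305, and the lowest wild-type library (13.56) lay above the highest mutant library (13.27). The rise of *ENA5* and the size of the fall of *ENA2* rest on that division of reads. The summed level adds values that rlog shrank gene by gene. It is therefore not a sum of reads and can depend on the division as well.

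Falls also occurred in other cation transporter genes. *KHA1*, a putative potassium and proton antiporter, stood at 11.52, 11.35 and 11.30 in wild-type and 10.72, 10.84 and 10.79 in the mutant (change −0.61, limma adjusted p = 2.14e-04), and *VNX1*, a vacuolar sodium and proton exchanger, changed by −0.44 (limma adjusted p = 6.72e-04). Both also fell within deciles of length. *TRK1*, the main potassium importer, changed by −0.35 as deposited and −0.25 after centring, kept under both, and by −0.11 within deciles of length, where it was not called (limma adjusted p = 0.191). *PMA1*, the plasma membrane proton pump, stood at 17.90, 17.91 and 17.80 in wild-type and 17.57, 17.67 and 17.61 in the mutant and was not called (limma adjusted p = 0.0599), although its libraries did not overlap.

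Genes of sugar uptake and glycolysis fell in part. *HXT2*, a high-affinity glucose transporter used at low glucose, stood at 13.10, 13.06 and 12.58 in wild-type and 11.72, 11.69 and 11.85 in *spn1* 141-305. Its change was −1.16 (standard error 0.12, limma adjusted p = 2.67e-07) and −1.03 within deciles of length. Among 17 hexose transporters and sensors tested, 9 (52.9%) fell as deposited (2 kept, 3 without wild-type replicate 1), 4 (23.5%) after centring (2 kept, 2 without wild-type replicate 2), and *HXT10* alone rose, within deciles of length. *HXT3*, a low-affinity glucose transporter, stood at 16.28, 16.23 and 16.09 in wild-type and 15.73, 15.69 and 15.89 in the mutant, and its centred change of −0.33 was kept (limma adjusted p = 0.00257). *HXT4* changed by −0.50 and differed from *spn1* K192N by −0.61 (limma adjusted p = 4.19e-04). Of 21 genes of glycolysis and fermentation, 10 (47.6%) fell as deposited (3 kept, 3 without wild-type replicate 1), 8 (38.1%) after centring (3 kept, 3 without wild-type replicate 1) and 5 within deciles of length. The median change was −0.26 as deposited and −0.16 after centring.

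*ENO1*, the minor enolase gene, stood at 15.36, 15.52 and 15.25 in wild-type and 14.62, 14.66 and 14.81 in *spn1* 141-305, and the change of −0.68 (limma adjusted p = 9.91e-04) was the largest of the glycolytic genes. Its paralog *ENO2*, with 95.0% of the coding sequence identical, stood at 18.71, 18.70 and 18.59 in wild-type and 18.32, 18.38 and 18.47 in the mutant and was not called (limma adjusted p = 0.051). The phosphofructokinase subunits fell together, *PFK2* by 0.42 and *PFK1* by 0.37, and both kept their centred calls (changes −0.32 and −0.27). *GLK1* and *HXK2*, the glucokinase and the main hexokinase, changed by −0.23 and −0.23 after centring and were called within deciles of length as well. The centred call of *GLK1* was lost without wild-type replicate 1 or *spn1* 141-305 replicate 3 (limma adjusted p between 0.0815 and 0.119), and that of *HXK2* was lost without wild-type replicate 1 (limma adjusted p = 0.0551). The single member that rose after centring was *PDC5*, the minor pyruvate decarboxylase gene, at 9.33, 9.21 and 9.17 in wild-type and 9.37, 9.35 and 9.48 in *spn1* 141-305 without overlap (centred change 0.27, limma adjusted p = 0.00325, kept), while the major gene *PDC1* stood at 18.23, 18.31 and 18.03 in wild-type and 17.78, 17.87 and 17.93 in the mutant. The paralogs are identical at 88.2% of positions.

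Genes of lipid synthesis fell in part, with the largest falls in enzymes of fatty acid synthesis. Of 25 phospholipid and fatty acid genes 12 (48%) fell as deposited (3 kept, 3 without wild-type replicate 1), 5 (20.0%) after centring (2 kept) and 3 within deciles of length, and none rose under the 3 scalings. *ACC1*, acetyl-CoA carboxylase, which makes the malonyl-CoA used for chain growth, stood at 14.89, 14.96 and 14.60 in wild-type and 14.11, 14.12 and 14.11 in the mutant (change −0.70, standard error 0.12, limma adjusted p = 4.71e-04). *FAS1*, the beta subunit of fatty acid synthase, stood at 15.60, 15.61 and 15.35 in wild-type and 14.91, 14.87 and 15.02 in the mutant (change −0.59, limma adjusted p = 0.00123). *ACC1* and *FAS1* are among the longest yeast genes, and both were still called within deciles of length (changes −0.47 and −0.35). After centring *ACC1* changed by −0.60 in *spn1* 141-305 and by −0.09 in *spn1* K192N, and the mutants differed by −0.51 (limma adjusted p = 0.00841). Of 27 ergosterol genes 10 (37%) fell as deposited (2 kept, 2 without wild-type replicate 1 or 2) and 5 (18.5%) after centring (2 kept). The kept members were *HMG1*, the rate-limiting reductase of the sterol pathway (change −0.41, limma adjusted p = 0.00159), and *UPC2*, its sterol-sensing activator (change −0.44, limma adjusted p = 0.00122), and only *UPC2* was called within deciles of length.

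Cell wall genes fell in part. Of 31 wall proteins and synthases 14 (45.2%) fell as deposited (2 kept, 2 without wild-type replicate 1), and after centring 7 (22.6%) fell (3 kept, 3 without wild-type replicate 1) and 1 (3.23%) rose, a rise that was not kept. *FKS1*, the main glucan synthase, changed by −0.29 after centring (limma adjusted p = 0.00332, kept), and *TIR4*, a mannoprotein of anaerobic cells, stood at 9.67, 9.53 and 9.54 in wild-type and 9.06, 8.98 and 9.12 in *spn1* 141-305 (change −0.53, limma adjusted p = 3.58e-05). *YPS1* and *TIR4* were the members that fell within deciles of length. In the contrast with *spn1* K192N 9 members (29%) were lower in *spn1* 141-305 and 2 (6.45%) higher, against 2.38% and 1.86% of all tested genes. *TIR4* differed by −0.33 (limma adjusted p = 0.00173), the chitin synthase genes *CHS2* and *CHS3* by −0.33 and −0.20 (limma adjusted p = 0.015 and 0.04), *FKS1* by −0.25 (limma adjusted p = 0.0201) and *HSP150*, a secreted wall protein, by −0.42 (limma adjusted p = 0.0299). The last 4 of these calls were lost without *spn1* 141-305 replicate 1. That of *CHS3* was also lost without *spn1* 141-305 replicate 3 or *spn1* K192N replicate 1 or 2 (limma adjusted p up to 0.175). *PIR1*, another wall protein, was higher by 0.62 (limma adjusted p = 0.00202).

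Amino acid permease genes moved in both directions. Of 21 tested 10 (47.6%) fell and 2 (9.52%) rose as deposited (2 and 1 kept), and 6 (28.6%) fell and 3 (14.3%) rose after centring (2 and 1 kept). Without wild-type replicate 1, 2 fell as deposited. *TAT2*, the tryptophan and tyrosine permease, stood at 11.78, 11.78 and 11.66 in wild-type and 11.18, 11.24 and 11.11 in *spn1* 141-305 (change −0.56, limma adjusted p = 4.77e-05). *BAP2*, a permease of branched-chain amino acids, changed by −0.40 (limma adjusted p = 0.00201). Both fell under all 3 scalings. *AGP1*, a broad-specificity permease induced by extracellular amino acids, moved the other way, at 11.55, 11.27 and 11.47 in wild-type and 12.19, 12.21 and 12.10 in *spn1* 141-305. Its change of 0.74 (standard error 0.08, limma adjusted p = 4.89e-07) was the third largest rise, and *AGP1* was higher than in *spn1* K192N by 0.52 (limma adjusted p = 4.94e-05).

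Among the cyclins, *CLN3*, the cyclin that starts the cell cycle in G1, stood at 12.15, 12.27 and 11.89 in wild-type and 11.37, 11.38 and 11.49 in *spn1* 141-305. The change of −0.69 (standard error 0.11, limma adjusted p = 9.06e-05) was −0.56 within deciles of length, and *CLN3* was lower than in *spn1* K192N (difference −0.47, limma adjusted p = 0.00442). Of 13 cyclin genes and *SIC1* 5 (38.5%) fell as deposited (2 kept, 2 without wild-type replicate 1), 5 (38.5%) after centring (1 kept, 1 without wild-type replicate 1 or 2) and 4 within deciles of length. After centring 1 (7.69%) rose, a rise that was not kept, against 3.17% of all tested genes. The mitotic cyclin genes *CLB1* and *CLB2* changed by −0.36 and −0.37. The call of *CLB1* was lost without wild-type replicate 1 (limma adjusted p = 0.0683), and that of *CLB2* was lost without wild-type replicate 1 or 2 (limma adjusted p between 0.0536 and 0.0808).

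Further lists of long genes had called members as deposited and after centring, of which few were left once genes were compared with others of their length. Of 29 nuclear pore genes 11 (37.9%) fell as deposited (5 kept, 5 without wild-type replicate 1) and 9 (31%) after centring (6 kept), the largest kept centred count of any list, and 0 fell within deciles of length. *NUP170* stood at 11.23, 11.20 and 11.19 in wild-type and 10.95, 10.84 and 10.82 in *spn1* 141-305, and *NUP100* at 11.06, 10.88 and 10.88 in wild-type and 10.61, 10.60 and 10.46 in the mutant, each without overlap. Their changes were −0.34 and −0.38 as deposited and −0.10 and −0.15 within deciles of length. The median length of the list was 2235 bases. Of 48 genes of the small subunit processome, which assembles the 40S ribosomal subunit, 15 (31.2%) fell as deposited (2 kept, 2 without wild-type replicate 1), 10 (20.8%) after centring (2 kept) and 1 within deciles of length. *UTP20* changed by −0.40 (limma adjusted p = 0.00127) and *UTP10* by −0.37 (limma adjusted p = 0.00284), both kept, and *UTP20* was the one called within deciles of length. Of 60 large subunit assembly factors 13 (21.7%) fell as deposited and 6 (10.0%) after centring, none of them kept (0 and 0 without wild-type replicate 1), shares close to those of all tested genes, and the median was −0.04 after centring and 0.002 when centred on genes above the median level.

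TOR and cAMP signalling couples growth to nutrients. Of 21 tested 10 (47.6%) fell as deposited (2 kept, 2 without wild-type replicate 1), 7 (33.3%) after centring (1 kept) and 2 within deciles of length, where the median was 0.02 against −0.08 after centring. *KOG1*, a subunit of TOR complex 1, stood at 10.36, 10.30 and 10.31 in wild-type and 9.88, 9.89 and 9.81 in the mutant (change −0.46, limma adjusted p = 3.58e-05), was called under all 3 scalings, and was lower than in *spn1* K192N (difference −0.23, limma adjusted p = 0.00572). Of 53 DNA replication genes 15 (28.3%) fell as deposited (2 kept, 2 without wild-type replicate 1) and 5 (9.43%) after centring (2 kept). After centring 1 (1.89%) rose, which was not kept. The kept genes were the helicase subunits *MCM3* (change −0.42, limma adjusted p = 0.00101) and *MCM7* (change −0.40, limma adjusted p = 0.00321), and both were called within deciles of length too.

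Lists of the transcription and chromatin machinery described here had centred medians near that of all tested genes. The share called lower was highest in the RNA polymerase I list. Of 30 elongation and termination factors 7 (23.3%) fell as deposited (1 kept, 1 without wild-type replicate 1), 4 (13.3%) after centring (1 kept) and 0 within deciles of length, with centred and length-centred medians of −0.01 and 0.01. The kept gene was *SEN1*, a helicase of transcription termination (change −0.41, limma adjusted p = 0.00157). *SPT6*, whose product is the direct partner of Spn1, stood at 11.997, 11.86 and 11.85 in wild-type and 11.60, 11.70 and 11.58 in *spn1* 141-305. Its libraries did not overlap, and its change of −0.28 (limma adjusted p = 0.016) passed the test with a call lost without wild-type replicate 1 or *spn1* 141-305 replicate 1 or 3 (limma adjusted p between 0.0738 and 0.108). Of 15 histone chaperone genes 5 (33.3%) fell as deposited, none of them kept, and 1 (6.67%) after centring. Of 54 genes of chromatin remodelers 9 (16.7%) fell as deposited and 5 (9.26%) after centring (2 and 1 kept, and the same numbers without wild-type replicate 1). *CHD1*, a remodeler that spaces nucleosomes in transcribed genes, changed by −0.39 (limma adjusted p = 0.00129) and was the member that fell within deciles of length. Of 54 Mediator, SAGA and TFIID genes 11 (20.4%) fell as deposited and 6 (11.1%) after centring (3 and 2 kept, and the same numbers without wild-type replicate 1). Of 15 genes of RNA polymerase I and its factors 6 (40.0%) fell as deposited (2 kept). After centring 4 (26.7%) fell (1 kept) and 1 (6.67%) rose, and 1 fell within deciles of length. *RRN3*, which brings RNA polymerase I to the ribosomal DNA, changed by −0.35 (limma adjusted p = 0.00202, kept under both scalings) and was called within deciles of length. Of 12 RNA polymerase II and shared subunit genes 2 (16.7%) fell under either scaling, none kept. Of 12 RNA polymerase III genes 3 (25.0%) fell as deposited and 2 (16.7%) after centring (1 and 1 kept).

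In lists of translation, membrane traffic and mRNA turnover the share called lower as deposited ran from 19.4% to 27.8%, against 18.8% of all tested genes. After centring it ran from 5.56% to 16.7%, against 8.3%, and single members stood out. Of 35 translation factor genes 8 (22.9%) fell as deposited and 5 (14.3%) after centring, of 18 cytosolic tRNA synthetase genes 5 (27.8%) and 3 (16.7%) fell, and no call of either list was kept. Within deciles of length 0 and 0 fell. Of 36 SEC genes of the secretory pathway 7 (19.4%) fell as deposited (2 kept, 2 without wild-type replicate 1) and 2 (5.56%) after centring (1 kept). *SEC59*, the dolichol kinase, was the member that fell under all 3 scalings (change −0.35, limma adjusted p = 0.00157, kept). Of 33 mRNA decay genes 7 (21.2%) fell as deposited and 4 (12.1%) after centring (2 and 2 kept, and the same numbers without wild-type replicate 1). After centring 1 (3.03%) rose, which was not kept. *DIS3*, the catalytic subunit of the RNA exosome, changed by −0.40 (limma adjusted p = 0.00122, kept) and fell within deciles of length, and *CDC39*, the scaffold of the Ccr4-Not complex, changed by −0.34 (limma adjusted p = 0.00335, kept) and did not. The iron regulon lies outside these groups. In it 7 (30.4%) of 23 genes fell as deposited (0 kept, 0 without wild-type replicate 1) and 0 after centring or within deciles of length. After centring 1 (4.35%) rose, which was not kept.

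Rises were few as deposited and included genes of nucleotide and amino acid synthesis. *IMD2*, inosine monophosphate dehydrogenase, the first enzyme of GMP synthesis and a gene whose start site responds to GTP supply, stood at 12.003, 11.998 and 12.12 in wild-type and 12.86, 12.76 and 12.78 in *spn1* 141-305. The change of 0.76 (standard error 0.08, limma adjusted p = 5.08e-07) was kept. The change in *spn1* K192N was 1.02 as deposited, and the direct contrast of the mutants is not given for *IMD2*. Its paralog *IMD3*, identical at 89.1% of positions, stood at 14.39, 14.22 and 14.24 in wild-type and 14.17, 14.20 and 14.25 in the mutant. Of the 6 GMP synthesis genes *IMD2* was the only one called after centring or as deposited. In the contrast with *spn1* K192N 1 of the 6 (16.7%) was lower in *spn1* 141-305, against 2.38% of all tested genes.

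Adenine synthesis had the highest median of the 48 lists. As deposited its median change was 0.05 and 1 of 13 genes (7.69%) rose, after centring the median was 0.15 and 5 (38.5%) rose (2 kept, 2 without wild-type replicate 2), and within deciles of length 6 rose. No member fell under any of the 3 scalings. *ADE2*, phosphoribosylaminoimidazole carboxylase, stood at 12.13, 11.90 and 11.96 in wild-type and 12.32, 12.32 and 12.22 in *spn1* 141-305 without overlap (centred change 0.39, standard error 0.05, limma adjusted p = 1.33e-04). *MTD1*, a folate enzyme that supplies one-carbon units, stood at 10.46, 10.40 and 10.16 in wild-type and 10.58, 10.54 and 10.502 in the mutant (centred change 0.30, limma adjusted p = 0.00257). *ADE12*, *ADE1* and *ADE3* changed by 0.21, 0.21 and 0.18 after centring, with overlap as deposited. The call of *ADE12* was lost without wild-type replicate 2 or *spn1* 141-305 replicate 1 (limma adjusted p between 0.0528 and 0.058), that of *ADE1* was lost without wild-type replicate 1, 2 or 3 or *spn1* 141-305 replicate 1, 2 or 3 (limma adjusted p between 0.0643 and 0.16), and that of *ADE3* was lost without wild-type replicate 1, 2 or 3 or *spn1* 141-305 replicate 1, 2 or 3 (limma adjusted p between 0.0625 and 0.129). In the centred values 3 members were below 0 and not called: *BAS1*, the activator gene (−0.09), *ADE16* (−0.07) and *ADE57*. The promoter window of *ADE16* held no TGACTC, and that of *ADE57* held 2 matches.

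Single genes of glycine cleavage and of histidine and asparagine synthesis rose in the same range. *GCV1*, the T subunit of glycine decarboxylase, stood at 10.30, 10.21 and 10.06 in wild-type and 10.45, 10.37 and 10.43 in *spn1* 141-305 without overlap (centred change 0.33, limma adjusted p = 4.06e-04, kept). *GCV2*, the P subunit, stood at 11.88, 11.64 and 11.65 in wild-type and 11.98, 12.01 and 11.88 in the mutant (centred change 0.34, limma adjusted p = 7.19e-04, kept). *HIS4*, a histidine synthesis enzyme that Bas1 and Gcn4 both activate, stood at 12.20, 11.95 and 12.03 in wild-type and 12.38, 12.44 and 12.37 in the mutant (centred change 0.44, limma adjusted p = 5.51e-05). *ASN1*, asparagine synthetase, changed by 0.38 after centring (limma adjusted p = 1.02e-04). All 4 were kept after centring, and each was higher in *spn1* 141-305 than in *spn1* K192N (differences 0.24, 0.33, 0.34 and 0.24 in that order, limma adjusted p = 0.00916, 0.00173, 0.0016 and 0.0105), with the call of *GCV1* lost without *spn1* 141-305 replicate 1 (limma adjusted p = 0.0577) and that of *ASN1* without replicate 2 (limma adjusted p = 0.0552). *ADE2* differed from *spn1* K192N by 0.05 (limma adjusted p = 0.712). The TGACTC core common to Bas1 and Gcn4 sites, searched on both strands, occurred in the 600 upstream bases of 11 of the 13 adenine genes (84.6%) and of 32 of 42 Gcn4 target genes (76.2%), against 916 of 5895 protein-coding genes (15.5%). Both lists hold genes under these activators, so high shares follow from the listing and are no test of the rises. Windows of the genes that rose are shown, 5′ to 3′ on the coding strand from RefSeq R64, with the core in capitals.
ADE2 distal: tatgctgacaaaTGACTCttgttgcatggc
ADE2 proximal: atactaagtgatTGACTCttgctgaccttt
MTD1: attatgatatatTGACTCagtagaaaagga
HIS4: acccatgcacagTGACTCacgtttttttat
ASN1: tcatgtaacattTGACTCattctgtaaact
GCV1: gctcaggagcccTGACTCgtgttgcctcga
GCV2: acccgacatctcTGACTCttcttgaggtat
They lie at chrXV:566370-566399 and chrXV:566327-566356 (ADE2, minus strand), chrXI:590209-590238 (MTD1, plus strand, 1 of 2 matches), chrIII:68515-68544 (HIS4, minus strand, 1 of 3), chrXVI:822381-822410 (ASN1, plus strand), chrIV:485491-485520 (GCV1, minus strand) and chrXIII:637197-637226 (GCV2, plus strand, 1 of 4).

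The Gcn4 targets of amino acid synthesis moved in both directions. Of 42 amino acid synthesis genes 4 (9.52%) fell and 1 (2.38%) rose as deposited, and 2 (4.76%) fell and 6 (14.3%) rose after centring (2 and 1 kept, 1 rise without wild-type replicate 2 or *spn1* 141-305 replicate 1), with a centred median of 0.00024. When centred on genes above the median level 12 rose (28.6%), against 5.91% of all tested genes. The genes that fell were *ILV5*, an enzyme of branched-chain amino acid synthesis (centred change −0.26, limma adjusted p = 0.00171), and *ARO1*, a multifunctional enzyme of aromatic amino acid synthesis (centred change −0.27, limma adjusted p = 0.00289), both kept. *GDH1*, the glutamate dehydrogenase that assimilates ammonium and the eighth largest rise, stood at 12.58, 12.58 and 12.36 in wild-type and 12.85, 12.84 and 12.80 in *spn1* 141-305 (centred change 0.43, limma adjusted p = 5.02e-04, kept). *BNA7*, of NAD synthesis, changed by 0.27 as deposited (limma adjusted p = 0.00563, kept). Among genes of methionine and S-adenosylmethionine synthesis, of 20 genes 5 (25%) fell as deposited (1 kept) and 3 (15%) after centring (1 kept, also without wild-type replicate 1), and the kept gene was the methionine synthase gene *MET6*, at 11.53, 11.16 and 11.13 in wild-type and 10.76, 10.89 and 10.81 in the mutant (change −0.45, limma adjusted p = 0.0017).

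*SER3*, the phosphoglycerate dehydrogenase of serine synthesis, is repressed in rich medium by transcription of the noncoding RNA *SRG1* across its promoter. *SER3* stood at 11.99, 11.48 and 12.09 in wild-type and 12.63, 12.59 and 12.37 in *spn1* 141-305 (change 0.68, standard error 0.14, limma adjusted p = 0.00152, kept). *SRG1* stood at 8.70, 8.65 and 8.66 in wild-type and 8.46, 8.39 and 8.38 in the mutant (change −0.25, limma adjusted p = 0.00785), a call lost without wild-type replicate 1 (limma adjusted p = 0.064) and not made after centring (limma adjusted p = 0.169). The second gene for the enzyme, *SER33*, stood at 11.09, 10.98 and 10.92 in wild-type and 10.92, 10.90 and 10.89 in the mutant and was not called, although its libraries did not overlap. *FLO11*, an adhesin gene controlled by a pair of long noncoding RNAs, changed by −0.38 (limma adjusted p = 4.32e-04, kept), and *IRT1*, itself a noncoding RNA and located upstream of *IME1*, by −0.32 (limma adjusted p = 0.00145, kept as deposited). Of 10 noncoding RNAs tested 6 (60.0%) fell as deposited (2 kept), 2 (20.0%) after centring and 1 within deciles of length.

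Several groups stood above the median gene after centring, but few of their rises were kept. Of 25 general stress genes, the targets of Msn2 and Msn4, 1 (4%) fell and 1 (4%) rose as deposited, and after centring 7 (28%) rose with a median of 0.11, none of them kept (0 without wild-type replicate 2). The member that rose as deposited, the small heat shock gene *HSP26*, stood at 6.89, 6.70 and 6.76 in wild-type and 6.90, 6.999 and 6.87 in *spn1* 141-305, which overlap (limma adjusted p = 0.0473), and its call was lost without wild-type replicate 2 or 3 or *spn1* 141-305 replicate 1, 2 or 3 (limma adjusted p between 0.05 and 0.222). As deposited 1 of 39 respiratory chain and ATP synthase genes (2.56%) and 1 of 72 mitochondrial ribosomal protein genes (1.39%) fell and none rose. After centring 5 (12.8%) and 5 (6.94%) rose and none fell. None of these calls was kept under either scaling (0 rose after centring without *spn1* 141-305 replicate 3). These are short genes, with median lengths of 468 and 706 bases, and within deciles of length 0 and 0 rose, with medians of 0.01 and 0.03. In the tricarboxylic acid cycle 1 of 14 genes (7.14%) fell, which was not kept, and none rose as deposited. After centring 4 (28.6%) rose and none fell, and *IDH1*, a subunit of isocitrate dehydrogenase, was kept (10.43, 10.24 and 10.39 in wild-type, 10.59, 10.54 and 10.51 in *spn1* 141-305, centred change 0.30, limma adjusted p = 0.0014). Of 11 histone genes none was called as deposited, and *HHT2*, one of the H3 genes, rose after centring (0.23, limma adjusted p = 0.0326), a call lost without wild-type replicate 2 or 3 or *spn1* 141-305 replicate 1 or 3 (limma adjusted p between 0.0869 and 0.151).

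The mRNAs of cytosolic ribosomal proteins, which make up a large part of the mRNA of growing cells, stayed close to the median gene. Of 136 tested 4 (2.94%) fell as deposited (3 kept) and 3 (2.21%) after centring (2 kept), none rose, and the median was −0.08 as deposited and 0.02 after centring. The kept members all belong to pairs of duplicated genes, and the share of such genes among all members tested was not counted. *RPS9A* stood at 10.92, 10.98 and 10.78 in wild-type and 10.38, 10.38 and 10.23 in *spn1* 141-305 (change −0.56, limma adjusted p = 1.94e-05), *RPL18B* changed by −0.40 (limma adjusted p = 7.46e-04) and *RPS14B* by −0.33 (limma adjusted p = 0.00353). *RPL18B* and *RPS14B* were lower than in *spn1* K192N (differences −0.36 and −0.65, limma adjusted p = 4.04e-04 and 2.31e-06). Reads can be shared between such copies, and *RPS9A* and *RPS9B* were identical at 91.1% of positions. Of 33 proteasome genes 1 (3.03%) fell as deposited and none was called after centring or within deciles of length.

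Genes of a-cell mating were called lower no more often than all tested genes as deposited. Of 22 genes 3 (13.6%) fell and 1 (4.55%) rose as deposited, and 2 (9.09%) fell and 2 (9.09%) rose after centring (1 and 0 kept). *STE6*, the a-factor exporter, stood at 12.57, 12.54 and 12.51 in wild-type and 12.15, 12.23 and 11.999 in *spn1* 141-305 (change −0.41, limma adjusted p = 0.00129, kept). The pheromone-induced genes *FUS1* and *AGA1* changed by 0.29 and 0.40 after centring, without overlap between libraries. The centred call of *FUS1* was lost without wild-type replicate 1 or 2 (limma adjusted p between 0.0608 and 0.0702), and that of *AGA1* was lost without wild-type replicate 1 or 2 or *spn1* 141-305 replicate 1, 2 or 3 (limma adjusted p between 0.0567 and 0.201). Among 28 meiosis and sporulation genes, which are silent in growing haploid cells, 6 (21.4%) fell as deposited (2 kept, 2 without wild-type replicate 1), 1 (3.57%) after centring and none rose under either scaling, shares of falls close to or below those of all tested genes.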

How the data were processed

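Poly(A) RNA-seq libraries of triplicate cultures were mapped by the authors with Salmon 1.9 to S. cerevisiae and S. pombe transcripts and processed with DESeq2 1.30.1 in R 4.0.3, with size factors taken from the S. pombe genes. The authors deposited log2-scale values, a regularized log (rlog) matrix of 6577 genes, and 0 of its sample columns were left unused. Counts and mapping rates were not used here, so sequencing depth is unknown and no counting interval is given. Tables of the authors' own fold changes and p-values were not used. The MNase-based samples of the series were not analysed here. The values of 1 gene list are not reported here.

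Each gene was fitted on rlog values with limma 3.58.1 (R 4.3.3), with the 3 genotypes as groups, 9 libraries and an intensity-trended prior variance. Genes whose rlog averaged log2 of 10 or more over the libraries were tested, 5954 in all, and p-values were adjusted by the Benjamini-Hochberg method over all of them, with a threshold of 0.05. The fit was run as deposited, after each library's median gene deviation had been subtracted, and with subtraction within 10 deciles of gene length, which was added after the data had been seen. Library values were compared by exact permutation over 20 splits. Gene positions, sequences and motifs came from RefSeq R64, in which 5912 gene IDs matched. Tables were joined with pandas 2.3.3 in Python 3.11.15, permutations used numpy 2.4.6, rank correlations used scipy 1.17.1, and plots were drawn with matplotlib 3.10.9. The triplicates are separate cultures by the study's description, and p-values measure the spread between them.

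The comparison, the gene lists and the named-gene rule were chosen with earlier results of these data known. Named were *SPN1* and strain markers, the 15 largest falls and rises among called genes without overlap, the 10 largest centred rises, and in each list the called members, the 3 largest centred falls and rises and the member with the highest level. Outside this rule *ENO2*, *PHO12* and *SER33* were named as paralogs after their values had been seen, and the lists under other observations, with their members, and the group of noncoding RNAs were also chosen after values had been seen. The alternatives were no filter, a filter at log2 of 50, a fit of the 6 libraries alone, a prior without trend, the replicate block, a threshold of 0.01, centring on the mean gene or on genes above the median level, and leaving out each library.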

Additional observations from a re-analysis of the deposited data

How the results depend on the processing

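The numbers of genes lower and higher as deposited (1120 and 27) and after centring (494 and 189) kept their excess of falls under every alternative run other than centring on genes above the median level (293 and 352), and the counts depended on the spread estimated. The fit of the 6 libraries alone gave 2077 and 59 as deposited and 735 and 472 after centring, a threshold of 0.01 gave 404 and 9 and 208 and 52, and centring within deciles of length gave 198 and 104. With 1 of the 9 libraries left out the counts ran from 278 to 2038 and from 9 to 56 as deposited and from 214 to 702 and from 66 to 451 after centring, and the contrast with *spn1* K192N (142 and 111) ran from 73 to 139 and from 55 to 138. The filter, the prior and centring on the mean gene moved no count by more than 1.5 times. The difference in median deviation lay between −0.12 and −0.08 and that in length slope between −0.073 and −0.049 with 1 library left out.

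The replicate numbers shared no source in the labels, so the samples were not treated as pairs. Deviations of same-numbered wild-type and *spn1* 141-305 libraries had correlations of −0.10, −0.14 and −0.28. Those of differently numbered libraries of these genotypes ran from −0.17 to 0.26. For same-numbered wild-type and *spn1* K192N libraries they were 0.21, −0.18 and 0.25. With 3 libraries a genotype, such correlations cannot decide whether the numbers pair the samples. With the replicate number as a block, 1420 genes were lower and 37 higher as deposited, 483 and 205 after centring, and 135 and 102 in the contrast with *spn1* K192N.

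No named gene that was called turned its sign under any alternative, whereas the excess of falls after centring did, as above. The centred median changed sign in 18 of the 48 lists within deciles of length and in 16 when centred on genes above the median level. Of the calls and non-calls of named genes over leave-one-out fits, 1518 lost and 124 gained the call and 5054 were the same, and over other settings 620 lost, 115 gained and 4845 were the same. With 3 libraries a genotype and no counts, differences of weakly expressed genes, which rlog shrinks, were least detectable.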

Other observations

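Sphingolipid synthesis was a further lipid pathway with falls, in a list drawn up after values had been seen. Shares called in this and the next lists are descriptions, since their members were chosen with the values known. Of 16 genes 6 (37.5%) fell as deposited, 4 (25.0%) after centring (2 kept) and 3 (18.8%) within deciles of length. The shares of all tested genes were 18.8%, 8.3% and 3.33%. The kept genes act in the late steps that build the mannosylated head groups. *IPT1* stood at 12.76, 12.73 and 12.60 in wild-type and 12.10, 12.08 and 12.17 in *spn1* 141-305 (change −0.58, limma adjusted p = 4.77e-05), and *SUR1* at 11.40, 11.37 and 11.20 in wild-type and 10.64, 10.71 and 10.81 in the mutant (change −0.61, limma adjusted p = 6.71e-04). Neither gene overlapped between genotypes. The ceramide synthase gene *LAG1* stood at 11.49, 11.35 and 11.35 in wild-type and 11.22, 11.29 and 11.22 in the mutant and was not called.

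Nitrogen assimilation, also listed after values had been seen, moved in both directions. As deposited 2 of 14 genes (14.3%) fell (1 kept) and 2 (14.3%) rose (none kept), against 18.8% and 0.453% of all tested genes. After centring 6 (42.9%) rose (5 kept) and 1 (7.14%) fell (1 kept), against 3.17% and 8.3%. *GLN1*, glutamine synthetase, stood at 13.65, 13.57 and 13.46 in wild-type and 13.78, 13.79 and 13.81 in *spn1* 141-305 (centred change 0.34, limma adjusted p = 0.00281), and *CAR1*, arginase, at 10.29, 10.24 and 10.12 in wild-type and 10.44, 10.35 and 10.499 in the mutant (centred change 0.31, limma adjusted p = 0.00327). *GLT1*, glutamate synthase, which consumes glutamine, went the other way, at 12.97, 12.97 and 12.94 in wild-type and 12.57, 12.63 and 12.48 in the mutant (centred change −0.30, limma adjusted p = 0.0021), and was lower than in *spn1* K192N as well (difference −0.34, limma adjusted p = 0.00156).

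Targets of the calcium-activated phosphatase calcineurin and its factor Crz1 cut across the groups of the report. Of 12 listed after values had been seen, 9 (75.0%) fell as deposited (4 kept, 4 without wild-type replicate 1). After centring 6 (50.0%) fell (4 kept), and 3 (25.0%) fell within deciles of length. The shares of all tested genes were 18.8%, 8.3% and 3.33%. They include *PHO89*, *ENA1*, *YPS1* and *CMK2*, so the list is not independent of those already described, and *RCN1*, an inhibitor of calcineurin and itself a target, stood at 7.84, 7.79 and 7.77 in wild-type and 7.66, 7.75 and 7.79 in *spn1* 141-305, with overlap. Among 5 Y' helicase genes 3 (60.0%) fell as deposited (2 kept), and among 11 COS genes 4 (36.4%) fell (1 kept) and 1 (9.09%) rose (0 kept), families whose copies share reads. Of 11 antioxidant genes 1 (9.09%) fell, which was not kept, and none rose as deposited. After centring 3 (27.3%) rose (2 kept), against 3.17% of all tested genes. Among them was *TSA1*, the main peroxiredoxin, at 13.54, 13.40 and 13.35 in wild-type and 13.53, 13.62 and 13.76 in the mutant, which overlap.

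*YHR214W-A* and *YHR214W*, uncharacterized reading frames beside *PHO12* and *IMD2* at the right end of chromosome VIII, rose by 0.50 and 0.42 as deposited (limma adjusted p = 3.37e-06 and 6.15e-05). *YHR214W* stood at 8.32, 8.13 and 8.19 in wild-type and 8.58, 8.74 and 8.59 in *spn1* 141-305, and its coding sequence was identical at 99.8% of positions to that of *YAR066W* on chromosome I, so the reads cannot be placed with certainty.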
